A study of Rattus norvegicus with 6 samples.

Results

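Secreted signals of skin inflammation were followed in rat back skin treated with vehicle or with afatinib: the chemokines Ccl2 (ENSRNOG00000007159), Cxcl1 (ENSRNOG00000002802) and Cxcl2 (ENSRNOG00000002792), and the cytokines Il1b (ENSRNOG00000004649) and Il6 (ENSRNOG00000010278). They were taken by identifier as 5 of the 33692 features in each count table, for their role in rash, and all 5 were found in all 6 tables. The choice was made with earlier results of these data known. Whole back skin was sequenced as bulk RNA in 3 vehicle and 3 afatinib libraries of Rattus norvegicus. The sources used here do not give strain, sex, age, dose, route or length of treatment, nor do they say whether each library is a separate animal, so a p-value below measures the spread between libraries, which may be technical.

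Afatinib binds ErbB receptor kinases covalently, the epidermal growth factor receptor (EGFR) among them, and a rash is frequent in patients given drugs of this class. In skin, interleukin 1 beta is made mainly by myeloid cells and acts on keratinocytes, fibroblasts and endothelium, which answer with chemokines and interleukin 6. Cxcl1 and Cxcl2 bind the receptor Cxcr2 and draw neutrophils, Ccl2 binds Ccr2 and draws monocytes, and interleukin 6 signals through gp130 and STAT3. NF-kB, a transcription factor activated by interleukin 1 and by microbial products, is a known inducer of all of these genes.

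The promoters of all members found by symbol are shown as a description, and no link to the expression values was tested. RefSeq windows (build GRCr8) of 250 bases ending just before the annotated gene start were found by symbol for 4 of the 5 genes, Ccl2 not among them. All 4 lie on the minus strand and are written 5′ to 3′ along the gene: Cxcl1 at chr14:17479322-17479571, Cxcl2 at chr14:17467256-17467505, Il6 at chr4:5894576-5894825 and Il1b at chr3:137036582-137036831. Capitals mark matches to the degenerate NF-kB consensus of 10 bases and, in Il6 only, also the cAMP response element TGACGTCA.
Cxcl1: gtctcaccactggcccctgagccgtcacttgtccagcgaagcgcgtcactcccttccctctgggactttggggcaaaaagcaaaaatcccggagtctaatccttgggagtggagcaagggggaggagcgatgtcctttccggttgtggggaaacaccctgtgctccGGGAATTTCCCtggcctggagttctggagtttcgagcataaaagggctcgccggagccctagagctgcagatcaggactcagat
Cxcl2: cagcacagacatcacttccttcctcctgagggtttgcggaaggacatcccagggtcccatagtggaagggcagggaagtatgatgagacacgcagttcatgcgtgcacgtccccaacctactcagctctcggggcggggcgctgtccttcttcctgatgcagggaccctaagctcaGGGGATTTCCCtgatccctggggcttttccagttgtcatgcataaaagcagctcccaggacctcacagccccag
Il6: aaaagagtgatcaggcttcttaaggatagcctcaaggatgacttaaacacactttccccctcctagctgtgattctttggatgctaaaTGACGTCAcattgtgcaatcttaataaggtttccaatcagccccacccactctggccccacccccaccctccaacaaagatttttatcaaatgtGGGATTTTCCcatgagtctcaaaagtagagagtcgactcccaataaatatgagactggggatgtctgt
Il1b: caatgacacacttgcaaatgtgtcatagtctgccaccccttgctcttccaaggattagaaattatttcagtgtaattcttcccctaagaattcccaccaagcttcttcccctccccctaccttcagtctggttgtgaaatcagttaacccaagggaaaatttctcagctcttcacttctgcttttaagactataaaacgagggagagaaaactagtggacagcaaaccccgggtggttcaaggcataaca

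The NF-kB consensus, searched on both strands, was present in 3 of these 4 windows, those of Cxcl1, Cxcl2 and Il6, and in 3.54% of the 33469 RefSeq windows of this length. Its first match began at position -84 in Cxcl1, -74 in Cxcl2 and -68 in Il6, counted back from the gene start. In Cxcl1 and Cxcl2 a second match overlapped the first, shifted by 1 base. The cAMP response element was at position -162 in Il6 and in none of the other 3, against 1.59% of all windows, and the AP-1 motif TGANTCA was in 0 of 4, against 6.34%. The window of Il1b held none of the 3 motifs. Such matches are descriptions of letters and were not tested as binding sites. The motifs were chosen after these sequences were seen, so the shares over all windows are no test of enrichment. Cxcl1 and Cxcl2 are adjacent protein-coding genes of chromosome 14 in the RefSeq annotation and are similar in sequence. How the authors' counting treated reads that fit more than 1 gene is not given, so their split between these paralogs is uncertain.

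The libraries held 15304166 to 18494281 counts, and the floor used here, 3 counts, corresponded to 0.166 to 0.195 CPM (the count relative to the library's total, scaled by TMM, edgeR's trimmed mean method). One library stood apart from its label. Afatinib replicate 3 scored -17.7 on the first principal component of all tested features (60.2% of the variance), between the vehicle scores of -86.6 and -12.5, while afatinib replicates 1 and 2 scored 89.1 and 55.4. The group ratios, fold changes, calls and correlations between the genes are therefore given with and without it. Whether this library carries the right label was not tested, and all group values below take the labels as given. The rat identifiers could not be paired with symbols beyond these 5 genes, so the labelled tissue and the presence of neutrophils, macrophages or other cells were not checked against marker genes. In bulk skin, more cells of a producing type and more RNA per cell cannot be told apart.

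In afatinib replicates 1 and 2, the neutrophil chemokines Cxcl1 and Cxcl2 and the cytokines Il1b and Il6 were all above every vehicle library, by 6.76 to 176 times the vehicle mean. In afatinib replicate 3, Il1b, Il6 and Ccl2 lay within the vehicle range, and Cxcl1 and Cxcl2 slightly above it. Ccl2 was above every vehicle library in afatinib replicate 1 only. The share of all features above every vehicle library in afatinib replicates 1 and 2 was not computed. This pattern is therefore not read as particular to these genes.

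Cxcl2, a neutrophil chemokine, showed the largest fold difference of the 5. It had 8, 0 and 2 reads in vehicle replicates 1, 2 and 3 (0.449, 0 and 0.115 CPM), and 561, 575 and 13 reads in afatinib replicates 1, 2 and 3 (33.1, 31.9 and 0.844 CPM). Of the vehicle values, 2 are at or under the floor of 3 counts, so vehicle skin held almost no measurable Cxcl2. For the count of 0 in vehicle replicate 2, the floor of 3 counts was 0.189 CPM and the exact 95% Poisson interval reached 0.233 CPM. All 3 afatinib libraries were above all 3 vehicle libraries, but afatinib replicate 3 by little: its exact 95% Poisson interval, which covers counting error only, was 0.449 to 1.44 CPM, and that of the highest vehicle library was 0.194 to 0.884 CPM. The means were 0.188 ± 0.233 CPM in vehicle and 21.9 ± 18.3 CPM in afatinib skin (SD, n = 3 each), a ratio of 117 that rests on 10 vehicle reads in all. Without afatinib replicate 3 the ratio was 173.

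Cxcl1, the other Cxcr2 ligand, also separated the groups. It had 6, 2 and 12 reads in the vehicle libraries (0.337, 0.126 and 0.688 CPM) and 243, 157 and 19 in the afatinib libraries (14.3, 8.70 and 1.23 CPM). The groups again did not overlap, and afatinib replicate 3 was again the lowest of its group. Means were 0.384 ± 0.284 and 8.09 ± 6.58 CPM (SD, n = 3 each), a ratio of 21.1, or 30.0 without afatinib replicate 3. Vehicle replicate 2 was at or under the floor.

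Ccl2, the monocyte chemokine, was already well detected in vehicle skin. It had 74, 74 and 217 reads in vehicle (4.15, 4.67 and 12.4 CPM) and 492, 183 and 113 in afatinib libraries (29.0, 10.1 and 7.34 CPM). Only afatinib replicate 1 lay above all vehicle libraries, and vehicle replicate 3 exceeded both other afatinib libraries. Means were 7.09 ± 4.65 and 15.5 ± 11.8 CPM (SD, n = 3 each), a ratio of 2.19, or 2.76 without afatinib replicate 3.

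Il1b, the cytokine that acts upstream of many of these signals, had 74, 42 and 79 reads in vehicle (4.15, 2.65 and 4.53 CPM). In afatinib libraries it had 1690, 702 and 53 reads (99.8, 38.9 and 3.44 CPM). Afatinib replicates 1 and 2 were 26.4 and 10.3 times the vehicle mean, whereas replicate 3 was 0.911 of it and lay inside the vehicle range. The vehicle libraries were close to each other, at 3.78 ± 0.996 CPM, and the afatinib libraries far apart, at 47.4 ± 48.7 CPM (SD, n = 3 each), a ratio of 12.5, or 18.4 without afatinib replicate 3.

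Il6 was near the limit of detection. It had 6, 0 and 4 reads in vehicle (0.337, 0 and 0.229 CPM) and 80, 23 and 3 in afatinib libraries (4.72, 1.27 and 0.195 CPM). The same floor of 0.189 CPM and upper limit of 0.233 CPM hold for the count of 0 in vehicle replicate 2. Afatinib replicates 1 and 2 lay above all vehicle libraries, and replicate 3, at the floor, lay among them. Means were 0.189 ± 0.172 and 2.06 ± 2.36 CPM (SD, n = 3 each), a ratio of 10.9 with 10 vehicle reads in all, or 15.9 without afatinib replicate 3. At this depth, a difference between afatinib replicate 3 and vehicle was not detectable: their ratio was 0.996, with an exact 95% interval of 0.176 to 3.87 for counting error.

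**Figure D1:**
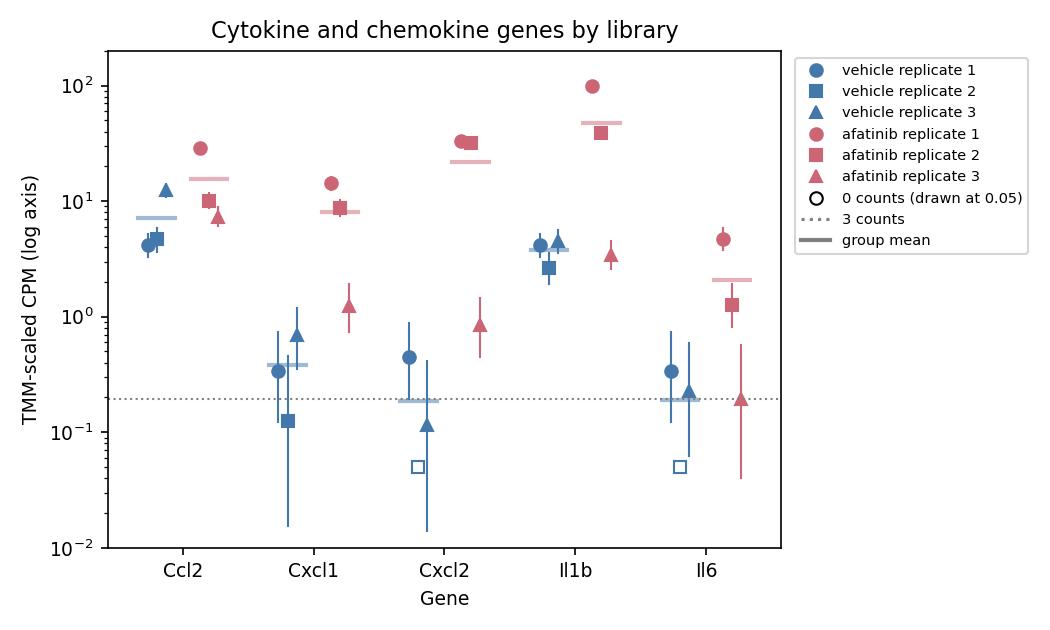
Each point is 1 library's TMM-scaled CPM (log axis) with its exact 95% Poisson interval for counting error; blue marks vehicle and red afatinib, the shape gives the replicate, thick lines are group means, and the dotted line is 3 counts in the library where these are worth most (0.195 CPM). Afatinib replicates 1 and 2 are above all vehicle libraries in 4 genes and replicate 1 alone in Ccl2, while replicate 3 is above them in Cxcl1 and Cxcl2 only.

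Of the 5 genes, 2 (Cxcl1 and Cxcl2) thus had no overlap between the groups, and 12.9% of all 15497 tested features were likewise higher in every afatinib library. By the two-sided exact permutation test on CPM, p was 0.1 for Cxcl1 and Cxcl2, the smallest value that 3 against 3 libraries allow, and 0.3 for Ccl2, Il1b and Il6. Adjusted by the Benjamini-Hochberg method over the 5 genes, these were 0.25 and 0.3. No gene can pass 0.05 by this test.

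Across the whole table, 0% of features passed edgeR's quasi-likelihood test at an adjusted p under 0.05 with all 6 libraries, as did 0 of the 4 genes tested: the filter on low counts removed Il6. The fitted log2 fold changes of afatinib over vehicle were 6.77 for Cxcl2, 4.36 for Cxcl1, 3.64 for Il1b and 1.13 for Ccl2, with edgeR adjusted p-values of 0.191, 0.191, 0.202 and 0.363. Without the filter, Il6 had a log2 fold change of 3.38 and an edgeR adjusted p of 0.297. Cxcl2 had at most 8 reads in any vehicle library, so it passed this filter only through its afatinib libraries. Cxcl1, with 6, 2 and 12 vehicle reads, could not have passed without its afatinib libraries either. The ranks and p-values of Cxcl2 and Cxcl1 among filtered features therefore rest on the group where they are high. In the unfiltered fit, Cxcl2 had an edgeR p of 0.0104 and an adjusted p of 0.251. The unfiltered edgeR adjusted p-values of Cxcl1 and Il1b were 0.241 and 0.279. At an unadjusted edgeR p under 0.05, Cxcl2, Cxcl1 and Il1b were higher, 3 of the 4 genes tested, where 10.3% of all features were higher at this level. By size of log2 fold change they ranked 22, 54 and 71 from the top of the 15497 features, and Ccl2 ranked 925. Without afatinib replicate 3 the ranks were further from the top, at 35, 92, 110 and 1008 of 16014 features in the same order. The median was 4.0 over the 4 genes and 0 over all features. Because the genes were chosen with earlier results of these data known, these shares, ranks and medians are descriptions and not independent support. The same holds for the shares of features given with the other tests.

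DESeq2, a second count test, called 3.90% of features higher in afatinib skin at an adjusted p under 0.05, and 3 of these 5 genes. Cxcl1 rose by a log2 fold change of 4.40 ± 0.90 (SE; adjusted p = 0.000201 by DESeq2), Il1b by 3.66 ± 0.86 (SE; adjusted p = 0.00205 by DESeq2) and Cxcl2 by 6.87 ± 1.70 (SE; adjusted p = 0.00376 by DESeq2). Il6 (3.45 ± 1.28, SE; adjusted p = 0.0749 by DESeq2) and Ccl2 (1.14 ± 0.64, SE; adjusted p = 0.277 by DESeq2) did not pass. Limma voom on the same 6 libraries called none of them, with log2 fold changes of 4.01 ± 1.68 for Cxcl1, 6.34 ± 3.60 for Cxcl2 and 2.72 ± 1.71 for Il1b (SE) and limma adjusted p-values of 0.273, 0.355 and 0.392. The direction was the same in the 3 tools, and the call was not.

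**Figure D2:**
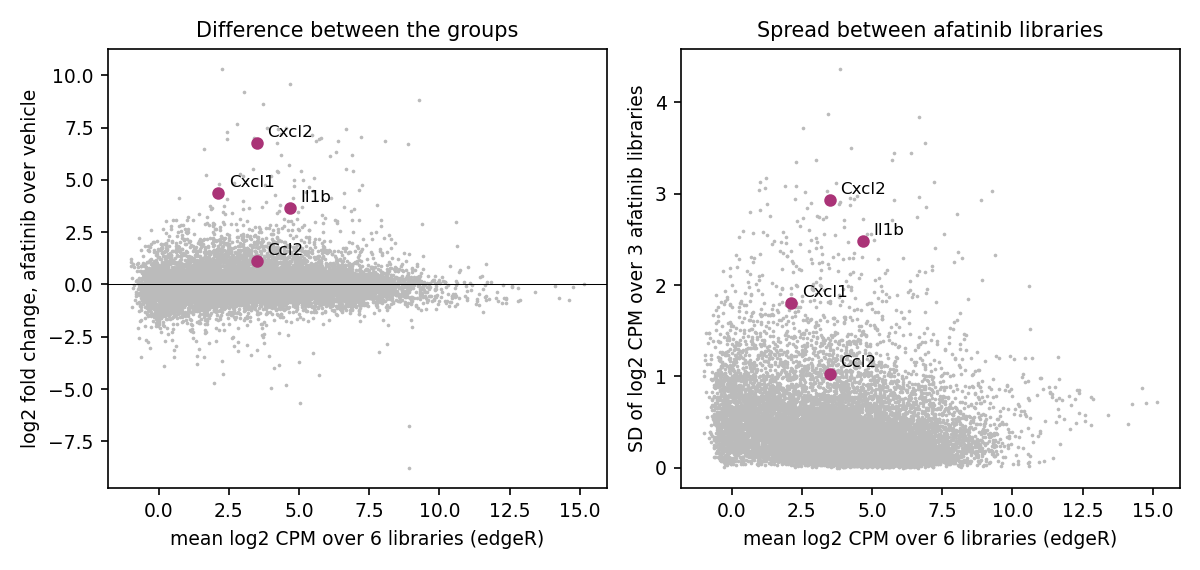
Grey points are the other tested features and purple points the 4 genes that passed the filter, placed by mean log2 CPM over the 6 libraries (edgeR); the left panel shows edgeR's log2 fold change of afatinib over vehicle and the right panel the SD of log2 CPM over the 3 afatinib libraries. Cxcl2, Cxcl1 and Il1b stand near the top of both panels and Ccl2 lies closer to the bulk of features.

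The same genes were also among the most variable within the afatinib group with afatinib replicate 3 included. Their SDs without it were not computed. Between afatinib replicates 1 and 2 the ratio was 1.04 in Cxcl2, 1.65 in Cxcl1, 2.56 in Il1b and 2.86 in Ccl2. The spread of Cxcl2 therefore came mainly from replicate 3. The SD of log2 CPM (prior count 2) over the 3 afatinib libraries was 2.93 for Cxcl2, 2.48 for Il1b, 1.80 for Cxcl1 and 1.03 for Ccl2, against a median of 0.30 over all tested features. In vehicle skin it was 1.13, 0.40, 0.86 and 0.86 in the same order, against a median of 0.22. The low vehicle counts of Cxcl1 and Cxcl2 add counting error to their vehicle SD. Il1b had 42 or more reads in every vehicle library, and its vehicle SD was at the percentile 74.7 of all features, while its afatinib SD was at the percentile 99.5.

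Afatinib replicate 3 was the lowest library of its group in all 5 genes. It held 1.28% of the summed afatinib CPM of Cxcl2, 2.42% of Il1b, 3.15% of Il6, 5.08% of Cxcl1 and 15.8% of Ccl2, where equal libraries would each hold the same share. Against the pooled vehicle reads, its level was 4.32-fold for Cxcl2 (exact 95% interval for counting error 1.75 to 11) and 3.15-fold for Cxcl1 (1.59 to 6.23), but 0.902-fold for Il1b (0.653 to 1.23) and 1.03-fold for Ccl2 (0.825 to 1.27). The intervals compare 1 library with 3 pooled libraries and take no account of variation between vehicle libraries. The 2 Cxcr2 ligands were therefore the members in which this library lay above the pooled vehicle reads by more than counting error. Its counting interval overlapped that of the highest vehicle library in both genes.

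Afatinib replicates 1 and 2 differed as well, and not to the same degree in each gene. Replicate 1 was 3.71-fold higher than replicate 2 in Il6 (exact 95% interval for counting error 2.31 to 6.18), 2.86-fold in Ccl2 (2.41 to 3.41) and 2.56-fold in Il1b (2.35 to 2.80). In Cxcl1 it was 1.65-fold higher (1.34 to 2.03). In Cxcl2 the ratio was 1.04 (0.924 to 1.17). Of the 4 tested genes, 2 (Ccl2 and Il1b) were thus at least 2-fold apart between these libraries, as were 7.61% of all tested features, whose median log2 difference was 0.03. Vehicle skin varied in Ccl2 too: vehicle replicate 3 was 3.0-fold above vehicle replicate 1.

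Without afatinib replicate 3, edgeR called 5.18% of 16014 features higher in afatinib skin at an adjusted p under 0.05, and 3 of the 5 genes. All 5 then passed the filter. Cxcl2 and Il6, with at most 8 and 6 reads in any vehicle library, passed it only through afatinib replicates 1 and 2. Cxcl1, with 6, 2 and 12 vehicle reads, could not have passed without these libraries either. The p-values of Cxcl2, Il6 and Cxcl1 thus rest on a filter met in the group where they are high. In this fit Cxcl2 rose by a log2 fold change of 7.33 (adjusted p = 0.0234 by edgeR), Cxcl1 by 4.86 (adjusted p = 0.0234 by edgeR) and Il1b by 4.19 (adjusted p = 0.0266 by edgeR). Il6, with a log2 fold change of 3.90, had an edgeR adjusted p of 0.0624, and Ccl2, with 1.46, one of 0.209. Limma voom called the same 3 genes without this library, among 9.67% of all features in either direction, with standard errors of 0.85, 0.73 and 0.66 for Cxcl2, Cxcl1 and Il1b. Leaving out any other single library left none of the 5 called in edgeR, and their log2 fold changes stayed above 0, the smallest being 0.30 for Ccl2 without afatinib replicate 1. Afatinib replicate 3 was singled out from these same data and was the lowest afatinib library in all 5 genes. Larger fold changes without it were therefore fixed in advance, and the calls without it are not independent support. What set afatinib replicate 3 apart, a wrong label included, was not tested.

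**Figure D3:**
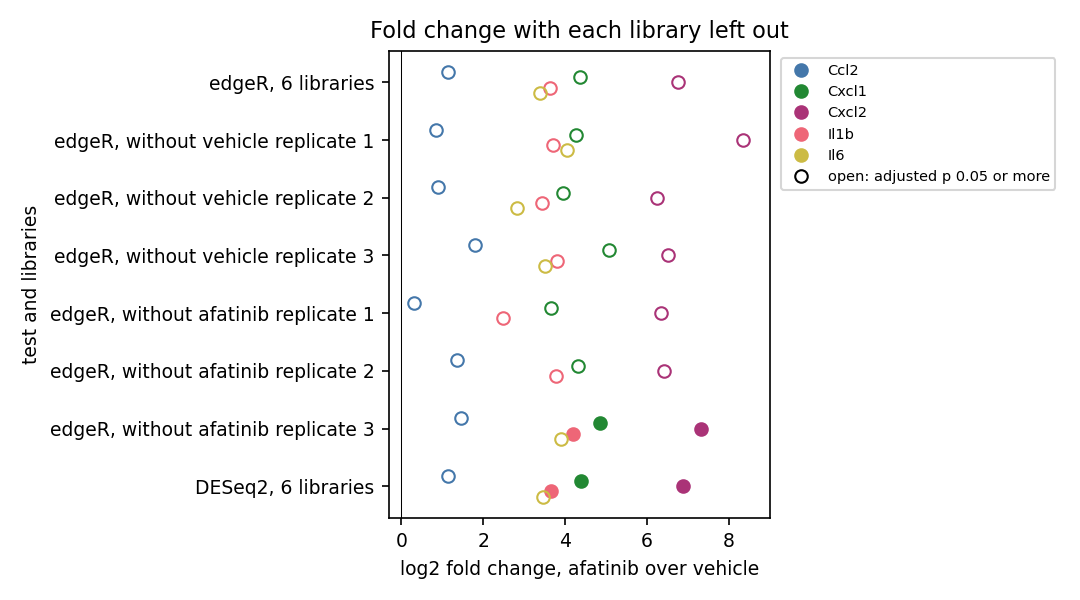
Points give the log2 fold change of afatinib over vehicle for each gene (colour) in edgeR with all 6 libraries, in edgeR with 1 library left out, and in DESeq2; filled points have an adjusted p under 0.05, and Il6 with all 6 libraries comes from the edgeR fit without the filter on low counts. Cxcl1, Cxcl2 and Il1b are filled in edgeR without afatinib replicate 3 and in DESeq2, and all points lie to the right of 0.

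Across the 6 libraries the 4 tested genes varied together to different degrees. The Pearson correlation of log2 CPM was 0.97 between Cxcl1 and Cxcl2, 0.95 between Cxcl1 and Il1b and 0.94 between Cxcl2 and Il1b (Spearman 0.94, 0.83 and 0.77). Ccl2 correlated with Cxcl1 by 0.82, with Il1b by 0.81 and with Cxcl2 by 0.67 (Spearman 0.77, 0.77 and 0.54). Over the 5 libraries without afatinib replicate 3 the Pearson values lay between 0.67, for Ccl2 with Cxcl2, and 0.99, for Cxcl1 with Il1b. These are descriptions over 6 libraries that share their scaling and fall into 2 treatment groups, so a difference between groups alone can produce such values. The other features most alike were sought among 11663 with a mean of at least 5 CPM. ENSRNOG00000017284 followed Ccl2 most closely (r = 0.999), with 25.4, 26.1 and 33.7 CPM in vehicle and 42.4, 32.1 and 30.0 CPM in afatinib libraries. ENSRNOG00000014879 followed Cxcl1 (r = 0.999), with 58.2, 53.3 and 65.4 CPM in vehicle and 119, 104 and 72.7 CPM in afatinib libraries. A correlation over 0.95 with Cxcl1 was found for 581 of these features, with Il1b for 555, with Cxcl2 for 313 and with Ccl2 for 59. The log2 fold changes of these 2 identifiers were 0.30 and 0.74 (edgeR adjusted p = 0.392 and 0.192), and the tables do not pair them with names. The features most alike to Il1b and Cxcl2 (r = 0.9975 and 0.9968) had log2 fold changes of 0.70 and 2.09 (edgeR adjusted p = 0.252 and 0.192).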

How the data were processed

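RNA from frozen rat back skin was sequenced, with 3 vehicle and 3 afatinib libraries, with groups and replicate numbers from the sample titles (the column headings number the afatinib libraries 3, 4 and 5, here 1, 2 and 3). The authors deposited raw read counts per gene, 1 table per library. HISAT2 2.0.5, featureCounts 1.5.0-p3 and DESeq2 1.16.1 are named in the submitters' processing notes. The sources used here do not give the annotation, the genome build, or how strand and multiply mapped reads were handled. The files hold identifiers only: symbols for the 5 genes came with the definition of the set, and 0 of the 33692 identifiers matched the RefSeq table (GRCr8). The 13 lists of pathway genes and cell type markers were therefore not tested.

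The members and lists were chosen with earlier results of these data known. Features were filtered with filterByExpr and scaled by TMM in edgeR 4.0.16 (R 4.3.3), and afatinib was compared with vehicle by the robust quasi-likelihood test, with Benjamini-Hochberg adjustment over all features. DESeq2 1.42.0 and limma 3.58.1 (voom) were alternatives, and all were tested on simulated data. Also tried were other scalings and filters, a replicate block and each library left out. DESeq2 and limma without afatinib replicate 3 were added after seeing the data. All 5 genes are named whatever their values. For each tested gene the feature of the highest correlation was found, and, as no symbols exist, the identifiers of the 2 with the highest values are printed. Promoter motifs were chosen after the sequences were seen. Poisson and binomial intervals (exact, 95%) and the floor of 3 counts cover counting error only. Every pair of libraries differed by far more than sampling noise (chi-square per degree of freedom at least 28.2), so none was taken as a second copy of another. This does not show that they came from separate animals.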

Additional observations from a re-analysis of the deposited data

How the results depend on the processing

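The direction of all 5 genes was the same in each of the 69 gene-level values from the alternatives. Of these, 13 passed an adjusted p of 0.05, against 0 in edgeR with 6 libraries. All 13 came from DESeq2 or from fits without afatinib replicate 3, and the alternatives reuse the same libraries. DESeq2 called 1032 of 15220 features (6.78%) and 3 of the genes (log2 fold changes of 4.40 for Cxcl1, 6.87 for Cxcl2 and 3.66 for Il1b). Without afatinib replicate 3, DESeq2 called 4085 of 16338 features (25%) and 4 of the genes (4.90 for Cxcl1, 7.39 for Cxcl2, 4.21 for Il1b and 3.98 for Il6), and limma voom called 1548 of 16014 features (9.67%) and 3 of the genes (4.98, 7.92 and 4.05 for Cxcl1, Cxcl2 and Il1b). Leaving out 1 library at a time, edgeR called 0 to 1627 features and 0 to 3 of the genes, the upper ends without afatinib replicate 3. The next highest count of features was 51 without vehicle replicate 2, then 1 without vehicle replicate 1. Log2 fold changes then ranged from 0.30 to 1.81 for Ccl2, 3.66 to 5.06 for Cxcl1, 6.24 to 8.35 for Cxcl2, 2.49 to 4.19 for Il1b and 2.83 to 4.04 for Il6. The filter removed Il6 without afatinib replicate 1 or 2, and the 5 CPM filter left only Ccl2. With 6 libraries, 3023 features had an unadjusted p under 0.05 in edgeR, 2865 in limma voom and 3616 in DESeq2. Scaling by total counts moved the median log2 fold change of all features from 0 to 0.12. Over the 3 other scalings the genes moved little (6.71 to 6.97 for Cxcl2, 1.06 to 1.27 for Ccl2). Deviations of libraries with the same replicate number correlated by 0.20, -0.21 and -0.39, so the numbers gave no sign of pairing. With the replicate block, edgeR called 0 features, and the log2 fold changes were 1.06, 4.02, 6.56 and 2.93 for Ccl2, Cxcl1, Cxcl2 and Il1b. Low counts limit Il6, Cxcl1 and Cxcl2 most: 5 of the 30 values by gene and library were at or under 3 counts.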
